A study of Mus musculus with 18 samples.

Results

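Transcripts that mark T cells and their killing machinery were followed through chronic colitis, colitis-associated colorectal cancer (CAC) and CAC organoids of mice labelled wild type or RNF138-/-, a genotype named for the ubiquitin ligase RNF138. The 10 genes were Cd3e, Cd3d, Cd3g, Cd4, Cd8a, Cd2, Cd5, Gzma, Gzmb and Prf1. They were taken by symbol, and all 10 were found among the 36757 genes of the count table. The series held 18 RNA-seq libraries, 3 for each genotype in each of the 3 models, all from C57BL/6 mice that were 6-8 weeks old at the start. The wild-type (WT) controls carried the floxed allele (RNF138fl/fl), and the other mice were labelled RNF138-/-. The colitis mice drank 2% dextran sulfate sodium (DSS), an irritant of the colon lining, for 7 days and plain water for 14 days in repeated cycles, and were killed 4 weeks after the last cycle. The CAC mice first received 10 mg/kg of the carcinogen azoxymethane by injection and began the DSS cycles 4 days later. The organoids were grown in matrigel from digested tumor-bearing fragments of CAC intestine. The tissue libraries are bulk colorectal tissue without a sort for T cells. The promoter or Cre line behind the deletion and the number of mice per library were not given in the sources used here, so the p-values measure the spread between libraries, whatever its origin.

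A T cell recognises its target through a T cell receptor held in the membrane by the CD3 chains, which carry the signal inward. CD4 marks helper and regulatory T cells, and CD8 marks the T cells that kill; each is a coreceptor that binds the MHC molecule presenting the antigen. Killer T cells and natural killer cells store perforin and granzymes in granules: perforin opens the membrane of the target cell, and granzymes are the proteases that enter it. In the colon, many CD8 T cells lie within the epithelium itself.

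Per the annotation on mm10, Cd3g and Cd3d lie head to head on chromosome 9, with 1355 bases between their starts, and Cd3e lies next to them. All 10 are protein-coding genes. Cd3e (chr9:44998740-45009627, minus strand) overlaps Gm48719, on the opposite strand, and Gm48720, on its own strand. Stretches of 50 bases shared with another gene's transcripts on either strand, here those of Gm48719, made up 2.159% of the Cd3e transcripts; whether strand was used in counting was not stated, so reads within that stretch cannot be told apart. Such stretches made up at most 0.284% of the transcripts of each of the other 9 genes.

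The promoters of the granule genes, of Cd8a and of the head-to-head CD3 pair are shown because transcripts of these genes differed most between the groups described here or share 1 short stretch of genome. RefSeq promoters on GRCm38.p6 matched 8 of the 10 genes; Cd2 and Cd4 had no match. The 250 bases before each start are printed 5′ to 3′ on the strand of the gene. Capitals mark E-boxes (CANNTG, searched on both strands), the core bound by many basic helix-loop-helix factors, and RUNX cores (TGTGGT or its reverse complement), and no matches of the 2 motifs overlapped in these windows.
Gzma, chr13:113100982-113101231, minus strand: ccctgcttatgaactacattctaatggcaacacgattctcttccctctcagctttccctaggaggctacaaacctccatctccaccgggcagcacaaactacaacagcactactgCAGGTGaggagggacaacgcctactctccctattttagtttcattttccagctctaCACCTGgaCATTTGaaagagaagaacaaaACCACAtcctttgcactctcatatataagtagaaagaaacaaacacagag
Gzmb, chr14:56262335-56262584, minus strand: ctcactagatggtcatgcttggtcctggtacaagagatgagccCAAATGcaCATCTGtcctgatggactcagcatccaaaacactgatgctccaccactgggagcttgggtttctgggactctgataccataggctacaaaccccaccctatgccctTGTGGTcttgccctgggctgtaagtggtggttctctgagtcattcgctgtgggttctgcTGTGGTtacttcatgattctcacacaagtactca
Prf1, chr10:61297586-61297835, plus strand: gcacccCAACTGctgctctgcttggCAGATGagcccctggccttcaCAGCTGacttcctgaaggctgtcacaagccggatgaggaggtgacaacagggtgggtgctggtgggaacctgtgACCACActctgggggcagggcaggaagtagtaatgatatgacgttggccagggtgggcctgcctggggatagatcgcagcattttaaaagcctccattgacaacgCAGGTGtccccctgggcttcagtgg
Cd8a, chr6:71373177-71373426, plus strand: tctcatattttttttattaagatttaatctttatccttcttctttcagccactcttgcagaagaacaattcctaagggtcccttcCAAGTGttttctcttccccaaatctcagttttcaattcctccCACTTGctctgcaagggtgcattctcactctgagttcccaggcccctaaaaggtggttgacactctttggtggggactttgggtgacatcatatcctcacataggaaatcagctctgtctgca
Cd3g, chr9:44980432-44980681, minus strand: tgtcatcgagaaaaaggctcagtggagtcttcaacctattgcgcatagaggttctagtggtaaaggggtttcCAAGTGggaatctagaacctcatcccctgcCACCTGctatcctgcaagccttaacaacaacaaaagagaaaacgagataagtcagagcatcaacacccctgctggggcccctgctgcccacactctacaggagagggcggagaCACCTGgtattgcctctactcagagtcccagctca
Cd3d, chr9:44981536-44981785, plus strand: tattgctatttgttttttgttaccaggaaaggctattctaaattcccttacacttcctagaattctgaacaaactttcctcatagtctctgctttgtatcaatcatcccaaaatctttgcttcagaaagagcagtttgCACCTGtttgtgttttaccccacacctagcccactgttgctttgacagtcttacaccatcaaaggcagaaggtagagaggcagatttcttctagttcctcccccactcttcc
Of 32851 promoter windows of the same length, 66.2% held an E-box and 14.0% held a RUNX core. Every one of the 8 matched genes had at least 1 E-box. A RUNX core was found in Gzma (1), Prf1 (1) and Gzmb (2) and in none of the windows of Cd8a, Cd3g, Cd3d, Cd3e and Cd5. A match of letters is a description of the sequence and does not show that a factor binds there.

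Total counts ran from 11514716 to 24390082 per library. The 10 genes together gave 310 to 1658 counts in a tissue library, so the values of single genes rest on small counts. Rnf138 itself was not lower in the libraries labelled RNF138-/-: its fitted log2 fold change against WT was -0.06 in colitis (SE 0.22, adjusted p = 0.963) and 0.72 in CAC (SE 0.14, adjusted p = 0.0426, edgeR). Which part of the gene was removed was not given, and the genotypes are therefore used as labels only. In 3 of the 4 tissue groups, replicate 3 stood apart from its partners. By chi-square per degree of freedom over genes, CAC WT replicate 3 lay at 121.1 and 134.9 from its partners, which were 48.32 apart, and colitis RNF138-/- replicate 3 lay at 160.7 and 100.5 from partners 65.18 apart. Colitis WT replicate 3 lay at 38.03 and 50.31 from partners 13.61 apart, and without it 0 genes were called in colitis by edgeR instead of 15. All 12 tissue libraries had Y-linked RNA (114 to 228 CPM summed over 4 genes, where CPM is counts per 1000000 counts of the library after TMM scaling). The organoid WT libraries had none and those labelled RNF138-/- had 242 to 281 CPM, so that sex and genotype cannot be told apart in organoids.

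In colitis, all 10 genes had a higher mean in the libraries labelled RNF138-/- than in WT, beside 52.4% of all genes tested with a positive fitted value, and the granule proteases and Cd8a differed most. None of the 10 was called, where a call needed an adjusted p below 0.05 and at least a 2-fold change in edgeR's quasi-likelihood test; over all genes tested, 0.0902% were called in either direction. DESeq2 called 343 genes in all, 4 of the 10 among them, and at an unadjusted p below 0.05 in edgeR 7 of 9 were higher, against 6.08% of all genes tested; Prf1, which passed the filter on low counts only through the RNF138-/- libraries, is left out of that count. The 3 libraries of each genotype did not overlap in 8 of the 9 genes that passed the filter in both genotypes, always with RNF138-/- higher, against 8.86% of all genes tested; Prf1 did not overlap either. The exact permutation test of 3 against 3 libraries cannot give a p below 0.1, which it gave for these genes. The median log2 fold change was 1.43 over the 10 genes and 1.25 over the 9 without Prf1, beside 0.02 over all genes tested. Bulk RNA cannot tell fewer cells of a type from less RNA per cell, here and in every result that follows.

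The CD3 chains did not overlap between the genotypes in colitis. Cd3g encodes CD3 gamma, which was at 2.18, 1.91 and 3.34 CPM in WT replicates 1 to 3 and at 8.31, 5.45 and 8.91 CPM in those labelled RNF138-/-. The lowest RNF138-/- library was thus above the highest WT library. Its log2 fold change was 1.61 (SE 0.33), with an adjusted p of 0.172 in edgeR and 0.00184 in DESeq2. Cd3d, which encodes CD3 delta, was at 2.01, 2.24 and 1.55 CPM in WT and at 5.14, 3.42 and 4.17 CPM in RNF138-/-, again without overlap (log2 fold change 1.13, SE 0.30, edgeR adjusted p = 0.239). CD3 epsilon, the chain shared by all T cell receptor complexes and encoded by Cd3e, was at 1.23, 0.898 and 1.49 CPM in WT and at 2.81, 1.92 and 3.86 CPM in RNF138-/-. The groups did not overlap, and the log2 fold change was 1.25 (SE 0.39, edgeR adjusted p = 0.305).

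The coreceptors differed from each other in size. Cd8a, the alpha chain of CD8, was at 2.90, 2.81 and 2.48 CPM in WT colitis and at 7.59, 6.59 and 14.4 CPM in colitis labelled RNF138-/-. The WT libraries lay close together and replicate 3 of RNF138-/- was the highest of all. The log2 fold change was 1.81 (SE 0.35, adjusted p = 0.165 in edgeR and 0.000564 in DESeq2). Cd4 was at 7.48, 7.01 and 6.31 CPM in WT and at 8.19, 14.0 and 7.68 CPM in RNF138-/-. Here 1 library, replicate 2, stood far above the other 2, which lay just over the WT range (log2 fold change 0.52, SE 0.29, edgeR adjusted p = 0.596). The adhesion molecule Cd2 was the only one of the 10 whose groups overlapped, with 3.85, 4.26 and 4.15 CPM in WT and 7.71, 5.03 and 4.17 CPM in RNF138-/- (log2 fold change 0.46, SE 0.29, edgeR adjusted p = 0.66). Cd5, a brake on T cell receptor signals, was at 2.01, 1.12 and 1.67 CPM in WT and 2.39, 2.94 and 3.25 CPM in RNF138-/- (log2 fold change 0.83, SE 0.34, edgeR adjusted p = 0.446).

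Among the granule genes, granzyme A gave the highest fold of the 10. Gzma was at 4.24, 3.59 and 3.90 CPM in WT and at 13.0, 11.3 and 25.04 CPM in colitis labelled RNF138-/-. All 3 of the latter exceeded every WT library, and replicate 3 was about as high as the sum of the other 2. The log2 fold change was 2.07 (SE 0.35), with an adjusted p of 0.106 in edgeR and 8.75e-06 in DESeq2. Gzmb, which encodes the granzyme that triggers caspases, was at 3.80, 2.92 and 3.65 CPM in WT and at 11.1, 10.4 and 13.3 CPM in RNF138-/-. Both groups were tight, and the log2 fold change of 1.75 (SE 0.24) had an adjusted p of 0.0525 in edgeR and 3.54e-07 in DESeq2. Without RNF138-/- replicate 3, Gzma (1.62, adjusted p = 0.0282) and Gzmb (1.63, adjusted p = 0.0359) were both called in edgeR. Prf1, the perforin gene, rested on 8, 6 and 3 counts in WT and 17, 25 and 11 counts in RNF138-/-. It passed the filter on low counts only through its higher group, and the fitted value, 1.62 with an SE of 0.54 (edgeR adjusted p = 0.347), is given for completeness.

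**Figure D1:**
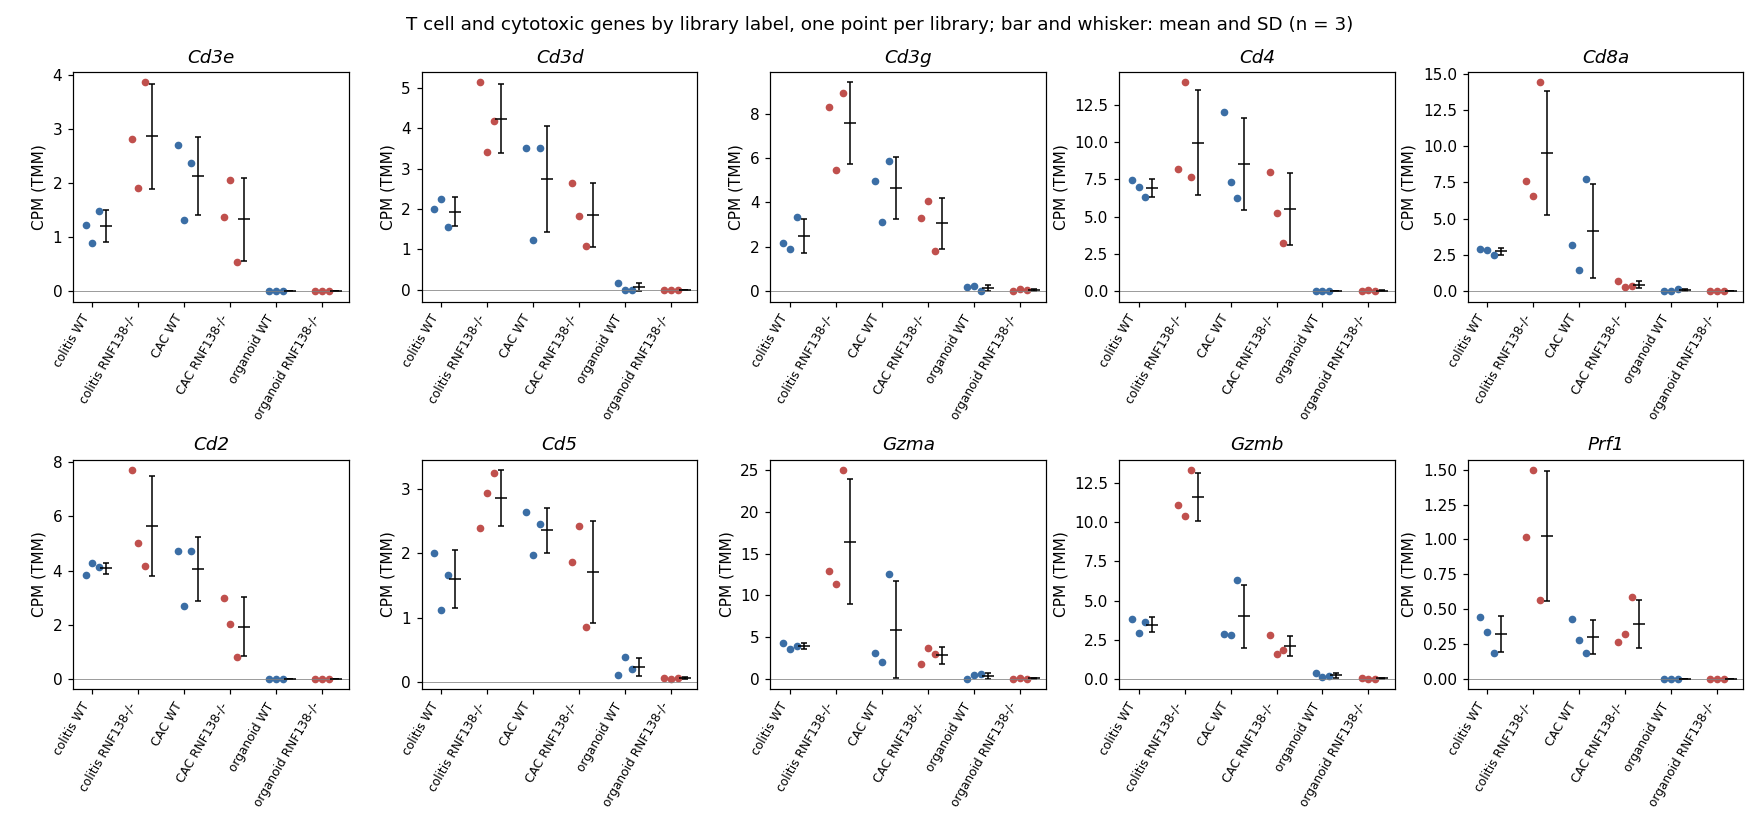
CPM after TMM scaling (vertical axis, linear, a scale of its own for each gene) of the 10 genes in all 18 libraries, grouped by model and by genotype label on the horizontal axis. Points are libraries in replicate order, with WT in blue and RNF138-/- in red, and the black mark and whisker beside them are the mean and SD of 3 libraries. In colitis the red points lie above the blue ones except for Cd2, in CAC the Cd8a points labelled RNF138-/- lie between 0.283 and 0.690 CPM, and the organoid points lie near 0.

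In CAC most of the 10 genes had values in the other direction. The mean was lower in the libraries labelled RNF138-/- for all but Prf1, but none of the 9 genes that passed the filter was called in edgeR, against 5.37% of all genes in either direction and 4.83% called lower; 50.4% of all genes had a positive fitted value. DESeq2 called 2463 genes, and of the 10 it called Cd8a. At an unadjusted p below 0.05, 0 of the 8 genes that passed the filter in both genotypes were lower, against 19.7% of all genes tested; Cd8a passed it only through the WT libraries. Of these 8, 1 (Gzmb) was lower without overlap, against 20.8% of all genes; Cd8a did not overlap either. The share of these genes that differed was thus no larger than the share over all genes.

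Cd8a was at 3.13, 1.46 and 7.76 CPM in WT CAC and at 0.690, 0.283 and 0.316 CPM in CAC labelled RNF138-/-, which is 51, 31 and 82 counts against 13, 7 and 7 counts. Every RNF138-/- library lay below every WT library, and the exact permutation test gave its smallest possible p, 0.1. Since the filter admitted the gene by its higher group, the fit with no filter on low counts is given first: there the log2 fold change was -3.24 (SE 0.65, edgeR adjusted p = 0.0233). With the filter it was -3.30 (SE 0.74, adjusted p = 0.0503 in edgeR, 0.000218 in DESeq2), and -2.44 (adjusted p = 0.045) without CAC WT replicate 3, the highest WT library. It was not called in 7 of 12 alternatives, the replicate block (adjusted p = 0.0576) and omission of WT replicate 1 or of any 1 RNF138-/- library included, and the adjusted p ranged from 0.000218 to 0.175. Cd4 was at 12.05, 7.33 and 6.24 CPM in WT and at 8.02, 5.26 and 3.21 CPM in RNF138-/-, with overlap (log2 fold change -0.69, SE 0.41, edgeR adjusted p = 0.27). The 2 coreceptors therefore differed in size in CAC as well, by values given side by side and not by a test.

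The CD3 chains overlapped between the genotypes in CAC. Cd3e was at 2.70, 1.31 and 2.36 CPM in WT and 1.38, 2.06 and 0.542 CPM in RNF138-/- (log2 fold change -0.71, SE 0.53, edgeR adjusted p = 0.368). Cd3g was at 4.98, 3.10 and 5.86 CPM in WT and 3.29, 4.08 and 1.81 CPM in RNF138-/- (log2 fold change -0.65, SE 0.40, edgeR adjusted p = 0.286). In each gene at least 1 RNF138-/- library exceeded 1 WT library. Cd3d, at -0.60 (SE 0.52, edgeR adjusted p = 0.432), Cd2, at -1.11 (SE 0.51, edgeR adjusted p = 0.175), and Cd5, at -0.50 (SE 0.42, edgeR adjusted p = 0.412), likewise overlapped.

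Granzyme values in WT CAC depended on 1 library. Gzma was at 3.13, 1.97 and 12.6 CPM in WT and at 1.75, 3.72 and 2.94 CPM in RNF138-/-. Replicate 3 of WT alone was above all RNF138-/- libraries, and without it the log2 fold change turned from -1.11 (SE 0.73, edgeR adjusted p = 0.31) to 0.12 (adjusted p = 0.873). Gzmb was at 2.83, 2.82 and 6.34 CPM in WT and at 2.81, 1.58 and 1.85 CPM in RNF138-/-, so that the highest RNF138-/- library lay just under the lowest WT library. Its log2 fold change was -0.99 (SE 0.44, edgeR adjusted p = 0.169), and -0.47 (adjusted p = 0.392) without WT replicate 3. Prf1 had 2 to 13 counts per CAC library, below the filter, and its mean was 0.3004 CPM in WT and 0.392 CPM in RNF138-/-.

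**Figure D2:**
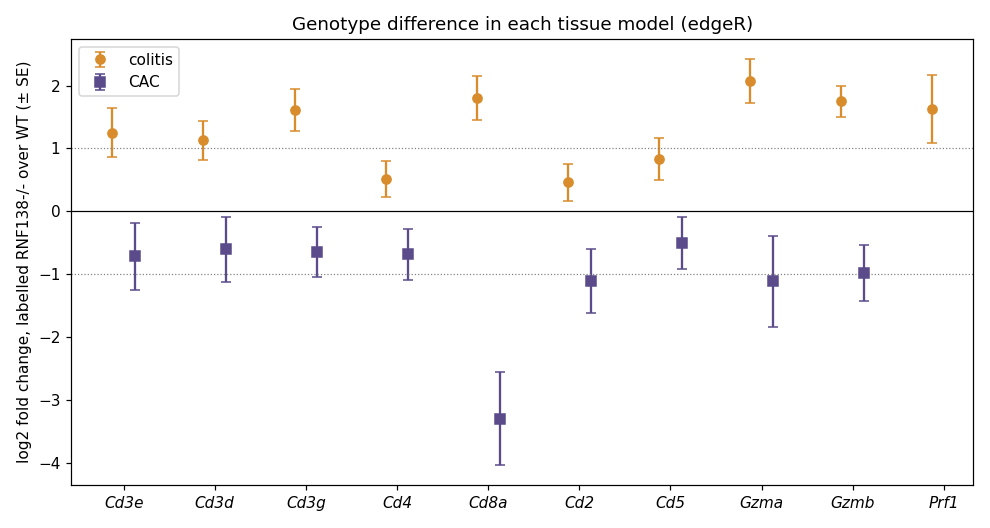
Fitted log2 fold change of each gene (vertical axis, libraries labelled RNF138-/- over WT, error bars 1 SE) in colitis (orange circles) and CAC (violet squares), with dotted lines at a 2-fold change. The colitis values run from 0.46 for Cd2 to 2.07 for Gzma, the CAC values from -0.50 for Cd5 to -3.30 for Cd8a, and Prf1 was not tested in CAC.

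The difference between the 2 genotype effects was tested as an interaction, CAC minus colitis, in 1 fit of the 12 tissue libraries. All 10 genes, Prf1 included, which passed the filter only through RNF138-/- colitis, had a negative interaction, where 49.9% of all genes had a positive one, and 4 were called: Cd8a, Gzma, Gzmb and Cd3g, against 7.23% of all genes called in that direction. The Cd8a interaction was the strongest, at -5.04 on the log2 scale (SE 0.82, adjusted p = 0.00629). It was followed by Gzma at -3.11 (SE 0.84, adjusted p = 0.0417), Gzmb at -2.68 (SE 0.50, adjusted p = 0.0114) and Cd3g at -2.20 (SE 0.54, adjusted p = 0.0298), all in edgeR. Cd8a and Gzmb stayed past the threshold in each of 17 alternative fits. Gzma did not in 10 of 17 (adjusted p 0.00252 to 0.0897): under the replicate block and when any 1 library was left out other than colitis RNF138-/- replicate 2 and CAC WT replicates 1 and 2. Cd3g did not in 6 of 17 (adjusted p 0.00165 to 0.0744): without colitis WT replicate 1 or 2, colitis RNF138-/- replicate 1, CAC WT replicate 3, or CAC RNF138-/- replicate 1 or 3. Without CAC WT replicate 3, the Gzma interaction was -1.97 (adjusted p = 0.0569) and that of Cd3g was -2.05 (adjusted p = 0.0513). The other 6 ran from -1.16 for Cd4 (SE 0.52, edgeR adjusted p = 0.177) to -1.91 for Cd3e (SE 0.68, edgeR adjusted p = 0.101). The colitis and CAC effects share no library.

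CAC was then compared with colitis within each genotype label. In WT, none of the 10 genes was called by edgeR or by DESeq2, against 11.4% of all genes in either direction, and 1 of them, Cd3g, had an unadjusted p below 0.05, against 17.9% of all genes that were higher in CAC at that level. The WT log2 values ran from -0.08 for Prf1 to 0.90 for Cd3g (SE 0.38, edgeR adjusted p = 0.134). In libraries labelled RNF138-/-, 6 of the 9 genes that passed the filter in more than 1 group were lower in CAC than in colitis, against 19.6% of all genes called lower. Cd8a fell most, by 4.48 on the log2 scale (SE 0.63, adjusted p = 0.000254), from 6.59 to 14.4 CPM in colitis to less than 1 CPM in CAC. Gzma changed by -2.54 (SE 0.61, adjusted p = 0.00479), Gzmb by -2.48 (SE 0.36, adjusted p = 0.000311), Cd2 by -1.54 (SE 0.43, adjusted p = 0.0112) and Cd3g by -1.30 (SE 0.38, adjusted p = 0.0135), all in edgeR. Cd3d at -1.20 (adjusted p = 0.0368) was called in edgeR as well. Prf1 passed the filter only through RNF138-/- colitis; its value of -1.36 is left out of the count, and with no filter it was not called (-1.40, edgeR adjusted p = 0.0698). Cd3d lost its call without RNF138-/- replicate 1 or 3 in colitis or replicate 2 or 3 in CAC, and Cd3g without RNF138-/- replicate 3 in CAC. Cd3e, Cd4 and Cd5 were not called, with values from -1.10 to -0.73. The wider list of T cell receptor and lineage genes had calls in both directions there: of 35 tested, 13 were lower and 5 higher in RNF138-/- (against 19.6% and 17.1% of all genes), and 5 were higher in WT (against 8.41% of all genes). Of the 31 that passed the filter in more than 1 group, 10 were lower and 5 higher in RNF138-/-. Lef1 had the largest change among the called genes of that list, 4.45 in RNF138-/- (adjusted p = 0.00018) and 4.35 in WT (adjusted p = 0.000974, edgeR). Ctla4 was higher by 2.40 in WT (adjusted p = 0.0036, edgeR). Zap70, the kinase that docks on CD3, was higher in CAC in both genotypes, by 1.58 in RNF138-/- (adjusted p = 0.00563) and 2.07 in WT (adjusted p = 0.00628, edgeR, log2 scale). Organoids, where the 10 genes were nearly absent, had Zap70 at means of 37.4 CPM in WT and 11.1 CPM in RNF138-/-. The models also differ in the tumors they hold and in azoxymethane, which cannot be told apart here.

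Ratios within a library do not depend on scaling between libraries, and the ratio of Cd8a to Cd4 counts set the groups furthest apart. It was 0.388, 0.400 and 0.392 in WT colitis, and 0.927, 0.470 and 1.88 in colitis labelled RNF138-/-. In CAC it was 0.260, 0.199 and 1.24 in WT and 0.0861, 0.0538 and 0.0986 in RNF138-/-. The RNF138-/- libraries thus lay above WT in colitis and below WT in CAC, without overlap in either model, while CAC WT replicate 3 lay among the colitis RNF138-/- values. The ratio of CD3 counts (3 chains summed) to those of Ptprc, which encodes the leukocyte marker CD45, was 0.130, 0.153 and 0.121 in WT colitis and 0.379, 0.192 and 0.215 in RNF138-/- colitis, also without overlap. In CAC it overlapped, from 0.121 to 0.239 in WT and from 0.133 to 0.227 in RNF138-/-. Granzyme counts (Gzma and Gzmb) per CD3 count ran from 1.18 to 1.48 in WT colitis and from 1.48 to 2.26 in RNF138-/- colitis. They ran from 0.533 to 1.61 in WT CAC and from 0.623 to 1.39 in RNF138-/- CAC, so these groups overlapped in both models.

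**Figure D3:**
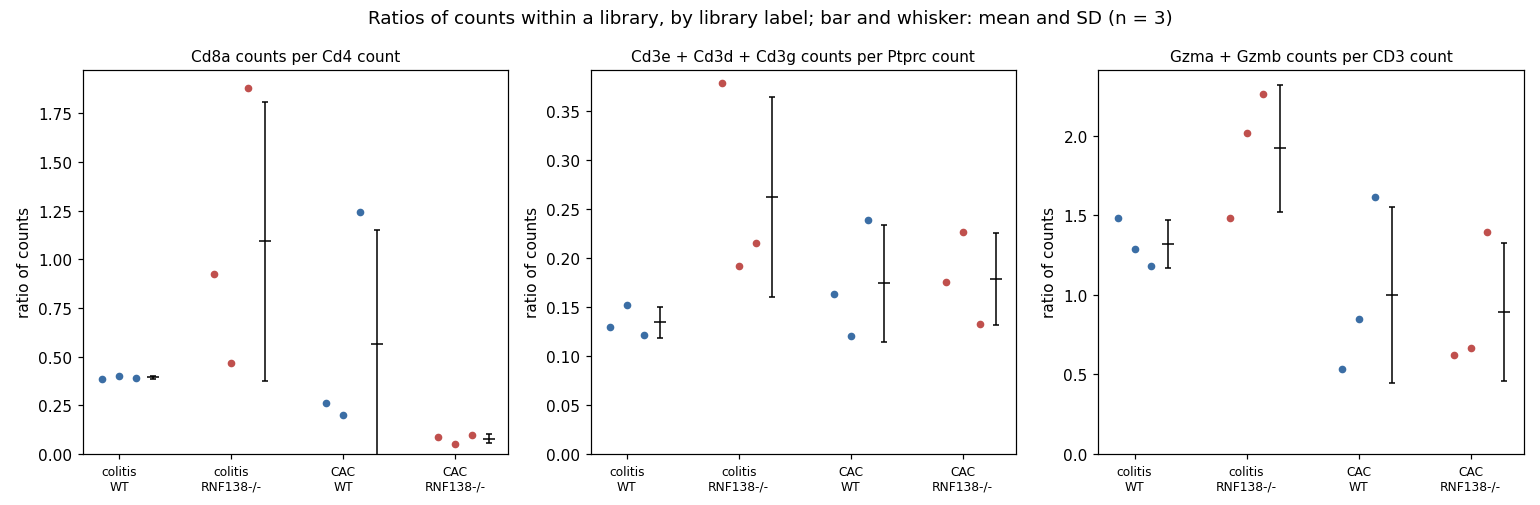
Ratios of raw counts within each tissue library (vertical axes, linear, no unit) by model and genotype label, with points for libraries and black marks for the mean and SD of 3. Cd8a per Cd4 stays between 0.388 and 0.400 in WT colitis and below 0.1 in CAC labelled RNF138-/-, and the CAC WT point at 1.24 is replicate 3.

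Levels per kilobase of exon allow the genes to be ranked against each other. The length was the union of all annotated exons of a gene, 4.08 kb for Cd3e and 1.815 kb for Cd3d. The ranks depend on that choice, since the length of the transcripts present was not measured. Gzma had the highest mean per kilobase in all 4 tissue groups, with of 3.89 CPM per kb in WT colitis, 16.3 in RNF138-/- colitis, 5.86 in WT CAC and 2.79 in RNF138-/- CAC, and Gzmb had the next highest mean in each. The lead of Gzma held for every library in colitis; in both CAC groups Gzma overlapped with Gzmb and Gzmb with the next gene, and the WT CAC mean of Gzma (SD 5.78) was carried by replicate 3, so these are not ordered in CAC. In WT colitis the order went on with Cd2, Cd4, Cd3d, Cd3g, Cd8a, Cd5, Cd3e and Prf1. The libraries of Gzmb and Cd2, of Cd3d and Cd3g, of Cd3g and Cd8a, and of Cd5 and Cd3e overlapped there, so these neighbours are not ordered. In RNF138-/- colitis Cd8a had a mean of 2.62 CPM per kb (SD 1.17), below Gzma and Gzmb and overlapping with its neighbours Cd2 and Cd4. It had the lowest mean in RNF138-/- CAC, at 0.118 CPM per kb (SD 0.0622), where it overlapped with Prf1.

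In organoids almost nothing of the 10 genes was counted. Cd3e, Cd2 and Prf1 were at 0 in all 6 libraries, and no gene had more than 9 counts in a library, the value of Gzma in WT replicate 3. All 10 together summed to 2 to 17 counts per library, and none passed the filter, so no genotype comparison was made for them. Against 3 counts per library as the limit that a count of 0 allows, Cd4 was at least 41.7-fold higher in WT CAC tissue than in WT organoids, Cd2 at least 19.8-fold and Cd3e at least 10.4-fold. In the libraries labelled RNF138-/- the bounds were at least 9.79-fold for Cd2, at least 9.37-fold for Cd3d, at least 6.72-fold for Cd3e and at least 2.17-fold for Cd8a, and for Prf1 they were 1.47-fold in WT and 1.98-fold in RNF138-/-. These limits use the mean of the CAC tissue and cover the counting error of the organoid libraries only. The bounds are uncertain for Prf1, with 2 to 13 counts per CAC library, and for Cd8a, with 7 to 13 in RNF138-/- CAC. Other transcripts named for T cells were counted there: Zap70 had 443 to 626 counts in WT organoids and 136 to 204 in those labelled RNF138-/-, and Trbc2, a receptor constant segment, 8 to 22 and 86 to 149. Zap70 (-1.80, adjusted p = 0.00141) and Trbc2 (2.93, adjusted p = 0.00254) were among 2 genes called higher and 5 called lower by edgeR of 14 tested in the T cell receptor and lineage list, against 15% of all genes called in either direction. The summed level of that list was 429 to 787 CPM in organoids and 164 to 268 CPM in tissue. Of its 36 genes, however, 9 were at 0 in all WT organoid libraries and 7 in all those labelled RNF138-/-. The sum was not split by gene and is not a measure of T cells. Epithelial markers summed to 5737 to 10992 CPM in the organoids, but fibroblast markers reached 9359 to 51227 CPM, above the 1008 to 1920 CPM of the tissue libraries.

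Beyond the 10, 36 further genes of the T cell receptor and lineage list were measured. In colitis 34 were tested, none was called by edgeR, 14 were higher and 0 lower at an unadjusted p below 0.05, against 6.08% and 4.33% of all genes, and the median log2 fold change was 0.86 (0.68 without RNF138-/- replicate 3). Of these 34, 26 passed the filter in both genotypes, and 13 of the 26 were higher at an unadjusted p below 0.05. DESeq2 called 2, Trbc2 and the adaptor gene Lat. Cd8b1, the partner chain of Cd8a, was at 1.46 (SE 0.37, edgeR adjusted p = 0.215), and Trbc2 at 1.33 (SE 0.32, edgeR adjusted p = 0.208). Trbc1 and Trbc2 are close copies between which counting can split reads, so their separate values are uncertain. In CAC, 2 of the 31 tested fell, the costimulatory receptor gene Cd28 (log2 fold change -1.85, adjusted p = 0.0272) and Slamf6 (-1.71, adjusted p = 0.0401), a share near the 4.83% of all genes called lower; 0 of the list were called without WT replicate 1 or any 1 of the RNF138-/- libraries, and the median was -0.39. Trac, at 0.82, Zap70, at 0.62, and Foxp3, the regulator of regulatory T cells, at 0.85 had positive values in CAC (edgeR adjusted p = 0.401, 0.28 and 0.293). The Trac value came with 1 high library, 14.1 CPM in RNF138-/- replicate 2 beside 4.20 and 2.53 CPM. The interaction was negative and called for 5 of 35, against 7.23% of all genes, among them Cd8b1 (-2.97, adjusted p = 0.0158), Skap1 (-2.49, adjusted p = 0.0207), Slamf6 (-2.41, adjusted p = 0.0203) and Trbc2 (-2.28, adjusted p = 0.0339).

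Genes of natural killer cells and cytotoxic granules had values in both directions. In colitis none of 17 tested was called by edgeR and 2, Nkg7 and Ccl5, by DESeq2; 7 were higher and 2 lower at an unadjusted p below 0.05, or 5 and 1 of the 11 that passed the filter in both genotypes, against 6.08% and 4.33% of all genes. The median was 0.54 with all libraries and -0.0026 without RNF138-/- replicate 3. Nkg7, a granule membrane protein, was at 1.95, 2.52 and 2.29 CPM in WT and at 5.44, 4.67 and 4.48 CPM in RNF138-/- (log2 fold change 1.10, SE 0.27, edgeR adjusted p = 0.208). Ccl5, a chemokine that effector T cells release, was at 2.57, 2.97 and 4.33 CPM in WT and at 10.0, 6.11 and 13.9 CPM in RNF138-/- (1.61, SE 0.37, edgeR adjusted p = 0.194). Ncr1, the receptor NKp46 of natural killer cells, had 15, 11 and 17 counts in WT and 5, 7 and 9 in RNF138-/-, and like Prf1 it passed the filter only through its higher group, here WT. Ifng had 0 to 12 counts in any tissue library and was not tested in either model. In CAC, Tnfsf10, which encodes the death ligand TRAIL, was the only one of 14 called by edgeR, and it rose (1.21, adjusted p = 0.0486), against 5.37% of all genes called in either direction and 0.546% called higher; 0 of the list were called when any 1 library other than WT replicate 3 was left out. At an unadjusted p below 0.05, 1 was higher and 4 were lower, also among the 10 genes that passed the filter in both genotypes, against 14.1% and 19.7% of all genes. DESeq2 called 1 higher and 2 lower, and the median was -0.56. The summed level of the 23 genes measured went the other way without overlap, with 100 to 111 CPM in WT and 140 to 159 CPM in RNF138-/-. The interaction was called for Ccl5 (-3.28, adjusted p = 0.0417), Nkg7 (-2.54, adjusted p = 0.017) and the protease gene Ctsw (-2.25, adjusted p = 0.0323), 3 of 18, against the same 7.23% of all genes.

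Markers of other cells were compared between the genotypes and between the models. In colitis none of the 8 pan-leukocyte genes was called by edgeR or DESeq2, 3 were higher at an unadjusted p below 0.05, against 6.08% of all genes, and their summed level was 215 to 256 CPM in WT and 317 to 338 CPM in libraries labelled RNF138-/-. Of the 10 B and plasma cell genes none was called by edgeR and 3 by DESeq2, all higher, of its 343 genes; 5 were higher and 1 lower at an unadjusted p below 0.05, against 6.08% and 4.33% of all genes, and the median was 0.70. That median was 0.40 without RNF138-/- replicate 1 and 0.92 without RNF138-/- replicate 2. The summed B and plasma cell level overlapped, with 2046 to 2935 CPM in WT and 1814 to 2894 CPM in RNF138-/-. The macrophage, epithelial, smooth muscle, fibroblast and endothelial lists had no call by either tool in colitis, and of the macrophage genes 0 passed an unadjusted p of 0.05 (median -0.08). Of 2 neutrophil genes tested there and 1 mast cell gene none was called by either tool, 1 and 0 were higher and 0 and 1 lower at an unadjusted p below 0.05, and the summed mast cell level was 127 to 144 CPM in WT and 75.7 to 92.2 CPM in RNF138-/-. In CAC, 9 of 10 B and plasma cell genes fell, against 4.83% of all genes called lower, and their sum was 1764 to 2597 CPM in WT against 476 to 620 CPM in RNF138-/-. All 7 smooth muscle genes fell as well, with a sum of 2817 to 9421 CPM in WT against 135 to 287 CPM. Without RNF138-/- replicate 1 or 2 no gene was called in CAC, and without RNF138-/- replicate 3, 2 genes of each of these lists were called; without 1 WT library, 5 to 9 and 6 to 7 were. The values stayed large in these fits: without RNF138-/- replicate 1, 2 or 3 the median log2 fold change was -4.08, -3.45 and -3.48 for B and plasma cell genes and -4.93, -4.96 and -5.19 for smooth muscle genes. The 7 neutrophil genes had a median of 1.76 in CAC with 0 called by edgeR, 5 higher by DESeq2, which called 2463 genes in all, and 5 higher at an unadjusted p below 0.05, against 14.1% of all genes, and their sum was 57.7 to 225 CPM in WT and 171 to 403 CPM in RNF138-/-. Of 8 mast cell genes 1 was called lower by each tool; their median was -0.85, and 0.48 with 0 called without WT replicate 2, the library with the highest mast cell sum (506 CPM). Of the pan-leukocyte genes, 1 of 8 fell (Cd52, -1.04, adjusted p = 0.0325), and 0 when any 1 library other than WT replicate 3 was left out, with sums of 225 to 374 CPM in WT and 205 to 265 CPM in RNF138-/-. None of the 10 macrophage genes (median 0.23, 2 higher at an unadjusted p below 0.05, 0 called by DESeq2) and none of the 8 epithelial genes (median -0.73, 4 lower at an unadjusted p below 0.05, 3 called lower by DESeq2) was called by edgeR. The mast cell receptor genes Ms4a2, in WT colitis, and Fcer1a, in RNF138-/- colitis, were at 0 in all 3 libraries, and no other gene of these lists was at 0 throughout a tissue group. CAC WT replicate 3, the library high in Cd8a and Gzma, had the highest smooth muscle sum (9421 CPM) and the highest epithelial sum (16658 CPM) of the WT CAC libraries, and the lowest macrophage sum (401 CPM). Its neutrophil sum was 57.7 CPM beside 225 and 104 CPM in its partners, and its Zap70 level of 4.45 CPM, beside 14.0 and 9.96 CPM, lay within the 1.55 to 6.82 CPM of the colitis libraries. In its smooth muscle sum, neutrophil sum and Zap70 level the library thus lay nearer to colitis tissue than its partners did. Its epithelial sum lay above the 9295 to 12786 CPM of the colitis libraries. Its macrophage sum lay below their 641 to 1034 CPM, and its B and plasma cell sum (1764 CPM) below their 1814 to 2935 CPM. Both partners lay within the colitis range in these last sums. The label of the library was kept.

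The same lists also differed between the models. The interaction was called lower for 9 of 10 B and plasma cell genes (median -4.40) and 7 of 7 smooth muscle genes (-5.33), against 7.23% of all genes. From colitis to CAC in libraries labelled RNF138-/-, 9 of 10 B and plasma cell genes (median -3.68) and 7 of 7 smooth muscle genes (-5.70) fell, against 19.6% of all genes, and 6 of 7 neutrophil genes (6.92) and 7 of 8 mast cell genes (5.98) rose, against 17.1%. In WT, 6 of 7 neutrophil genes (5.84) and 7 of 8 mast cell genes (5.52) rose as well, against 8.41% of all genes, and the smooth muscle median was -0.49. Of these neutrophil and mast cell genes only 2 of 7 and 1 of 8 passed the filter among the colitis libraries alone, so most were admitted through CAC, where they are high. The part of these markers in the T cell results was not tested.

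**Figure D4:**
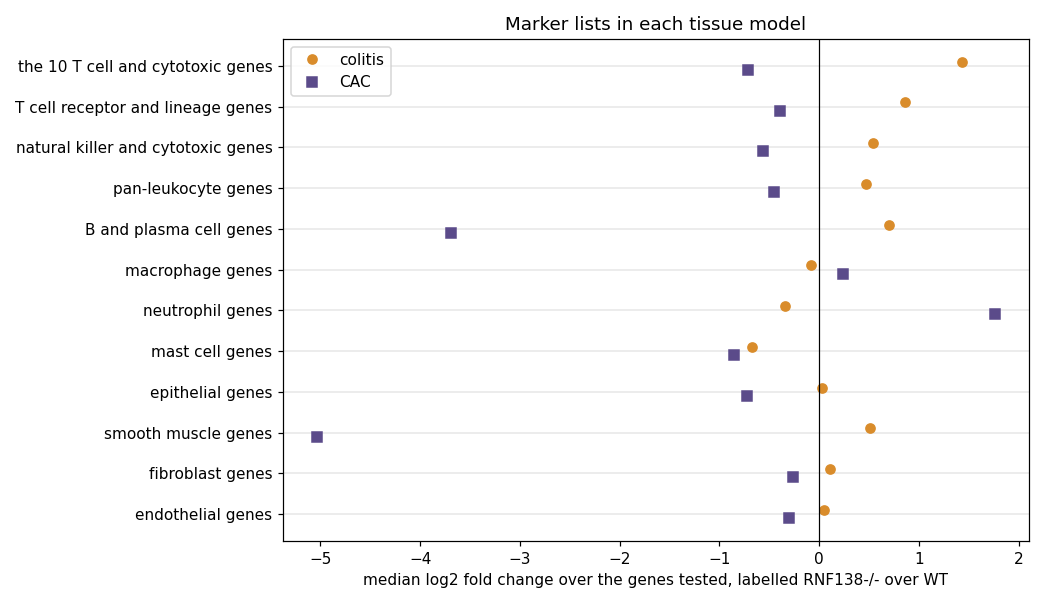
Median log2 fold change, libraries labelled RNF138-/- over WT (horizontal axis), over the tested genes of each marker list (vertical axis) in colitis (orange circles) and CAC (violet squares). The T cell and cytotoxic genes lie at 1.43 in colitis (10 tested, 1.25 without Prf1) and at -0.71 in CAC (9 tested, without Prf1). Smooth muscle genes lie at -5.03 and B and plasma cell genes at -3.69 in CAC. The medians carry no error.

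Across the 12 tissue libraries, the gene outside the 10 whose log2 CPM followed the mean of the CD3 chains most closely was Trbc2 (Pearson r = 0.930), and among the next closest were Tbc1d10c (0.915), Il2rb (0.895), a chain of the interleukin receptor, and Gimap3 (0.891). The closest to the mean of Gzma, Gzmb and Prf1 were Antxrl (0.968), Adamts19 (0.968) and Gm15704 (0.947), which had at most 4.69 CPM. These values are descriptions over libraries that share model, genotype label and depth, and they carry no p.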

How the data were processed

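RNA-seq of mouse colorectal tissue and organoids (18 libraries, 3 per genotype and model) was deposited by the authors as a table of raw read counts per gene, without normalization; per the labels the processing named mm10, STAR 2.6.1d, HTSeq 0.11.2 and DESeq2, and the strand setting was not given in the sources used here. A further deposited table holds the authors' own fold changes and p-values and was not used. Groups came from the sample labels. Counts were fitted in R 4.3.3 with edgeR 4.0.16 (filterByExpr with a minimum count of 10, TMM, glmQLFit and glmQLFTest), each model on its own 6 libraries and the interaction and model comparisons on 12, with Benjamini-Hochberg adjustment over all genes tested. A gene was called at an adjusted p below 0.05 and at least a 2-fold change. CPM used TMM over all 18 libraries; exact permutation tests were two-sided. CPM per kb used the exons of GENCODE M21, which matched 99.84% of gene identifiers. DESeq2 1.42.0, other filters and scalings, a replicate block, one fit of all libraries and leaving out each library were the alternatives. The replicate numbers were not treated as pairs, since the correlations of same-numbered deviations (-0.193 to 0.467) were not all over 0.1. In colitis they were 0.217, 0.0865 and 0.467, all positive, so whether the numbers pair libraries there is uncertain. The fits were tested on simulated counts, and Python 3.11.15 drew the figures.

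The 10 genes and the marker lists were chosen with earlier results of these data known. Beyond the 10, genes were named by rule: a set list of T cell and killer cell genes, up to 3 called genes of each list and comparison with the largest change, and the 10 genes most correlated with the CD3 or granule genes. Total counts ran from 11514716 to 24390082 and limit the precision for these low genes. Intervals cover counting error only, and floors cover that of the organoid libraries only.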

Additional observations from a re-analysis of the deposited data

Results flagged for a closer look

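The genotype effect, libraries labelled RNF138-/- over WT, differed between CAC and colitis by the interaction test for 4 of the 10 genes and for 7 further T cell or killer cell genes named above. On the log2 scale, CAC minus colitis, the values were -5.04 for Cd8a, -3.11 for Gzma, -2.68 for Gzmb and -2.2 for Cd3g. They were -3.28 for Ccl5, -2.97 for Cd8b1, -2.54 for Nkg7, -2.28 for Trbc2, -2.49 for Skap1, -2.41 for Slamf6 and -2.25 for Ctsw. The latter 7 were named from lists of T cell and killer cell genes, and 7.23% of all genes tested were called in that direction.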

How the results depend on the processing

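Over the 10 genes, 734 single-gene values under alternatives gave the same direction and side of the threshold in 675, lost a call in 29, gained one in 21 and turned in 9. In colitis, genes called went from 15 to 354 with no filter, 343 with DESeq2 and 89 with the replicate block, and the called among the 10 from 0 to 4, 4 and 2 (Gzma and Gzmb under the block). In CAC, genes called went from 954 to 1641 with no filter, 2463 with DESeq2 and 2834 in one fit of all 18 libraries, and the called among the 10 from 0 to 1 in each. The interaction called 1571 genes, and 2506 with DESeq2. Without TMM, 1 of the 10 did not overlap in CAC instead of 2; the median log2 ratio of all genes there was 0.25 without TMM and 0.05 with it, and the same number of the 10, 1, had the higher mean in RNF138-/-.

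Leaving out 1 library at a time, where a group of 2 is left, gave 0 (without WT replicate 3) to 147 genes called in colitis and 0 to 2 of the 10 (2 without RNF138-/- replicate 3), 0 to 1136 (0 without RNF138-/- replicate 1 or 2) and 0 to 1 in CAC (Cd8a, without WT replicate 2 or 3), 1515 to 3130 in organoids, 596 to 2139 and 2 to 5 for the interaction, 1105 to 2751 and 0 in WT CAC against colitis, and 6280 to 7574 and 5 to 7 (Prf1 counted) in RNF138-/-. The interaction kept 2 of its 4 calls without colitis WT replicate 1 or 2, colitis RNF138-/- replicate 1, CAC WT replicate 3, or CAC RNF138-/- replicate 1 or 3. The median log2 value of those of the 10 that were tested ranged from 1.25 to 1.41 in colitis, -0.97 to -0.39 in CAC, -2.11 to -1.57 for the interaction, 0.20 to 0.76 in WT and -1.57 to -1.10 in RNF138-/-. Gzma in CAC ranged from -1.53 to 0.12 (without WT replicate 3). In WT, CAC against colitis, Cd8a ranged from -0.25 to 0.98, Gzma from -0.61 to 0.99 and Gzmb from -0.28 to 0.39, each turned without CAC WT replicate 3. Prf1 ranged from -0.40 to 0.23 (turned without colitis WT replicate 1 or CAC WT replicate 3), Cd4 from -0.029 to 0.49 (turned without CAC WT replicate 1) and Cd2 from -0.16 to 0.21 (turned without colitis WT replicate 2 or CAC WT replicate 2); the cause was not tested. Under the replicate block the Gzma interaction had an adjusted p of 0.052 in edgeR. The replicate numbers were not treated as pairs, but the correlation of same-numbered libraries was 0.217, 0.0865 and 0.467 in colitis, where pairing is uncertain. A sex covariate was not run, because it was constant in the 12 tissue libraries. Depth limits Prf1, Ifng and all 10 genes in organoids.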
